A study of Mus musculus with 16 samples.

Results

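The genes described here are the enzymes of glucuronidation and sulfation in mouse liver. They are 41 of the 33730 genes of the count table, chosen by symbol and not by measured values. The rule took 9 Ugt1a, 8 Ugt2 and 2 Ugt3 UDP-glycosyltransferase genes, 18 sulfotransferase (Sult) genes and the 4 cofactor supply genes Ugdh, Ugp2, Papss1 and Papss2. Liver RNA of C57BL/6 mice was sequenced in 16 libraries, 4 in each of 4 groups. WT DMSO mice were wild type and received the solvent DMSO at 1 µL/g. WT CDDO-Me mice were wild type and received CDDO-Me at 3 mg/kg. KO untreated mice were Nrf2 null and were labelled untreated. KO CDDO-Me mice were Nrf2 null and received CDDO-Me at the same dose. Injections were intraperitoneal, 24 h and 1 h before partial hepatectomy, and all livers are labelled day 0. CDDO-Me, a synthetic triterpenoid also called bardoxolone methyl, is known to activate NRF2, the transcription factor encoded by Nfe2l2, and was dissolved in DMSO. Drug and solvent therefore cannot be told apart in KO CDDO-Me against KO untreated, and in KO untreated against WT DMSO the solvent goes with the genotype. The difference of the WT and KO drug responses also holds any effect of solvent and injection. Its WT control received DMSO and its KO control is labelled untreated. The sources used here give neither the deleted part of the Nrf2 gene nor the age of the mice.

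Glucuronidation and sulfation make lipophilic compounds water soluble for export in bile or urine. UDP-glycosyltransferases move glucuronic acid from UDP-glucuronic acid onto drugs, bilirubin, steroids and bile acids, and sulfotransferases move sulfate from the donor PAPS onto phenols, steroids and bile acids. UGP2 makes UDP-glucose, UGDH oxidises it to UDP-glucuronic acid, and PAPSS1 and PAPSS2 make PAPS. NRF2 is known to bind antioxidant response elements near genes of drug metabolism.

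The promoter windows of the 3 members with the largest rise under the drug in wild-type liver are shown to let the letters be read beside the values. Each runs from 250 bases before to 50 after the start site, in RefSeq GRCm38.p6 sequence, 5′ to 3′ on the gene's strand. Capitals mark the antioxidant response element core TGACNNNGC, searched on both strands. Ugdh lies at chr5:65435793-65436092, minus strand, Ugt2b35 at chr5:87000610-87000909, plus strand and Ugt2b5 at chr5:87140291-87140590, minus strand.
Ugdh: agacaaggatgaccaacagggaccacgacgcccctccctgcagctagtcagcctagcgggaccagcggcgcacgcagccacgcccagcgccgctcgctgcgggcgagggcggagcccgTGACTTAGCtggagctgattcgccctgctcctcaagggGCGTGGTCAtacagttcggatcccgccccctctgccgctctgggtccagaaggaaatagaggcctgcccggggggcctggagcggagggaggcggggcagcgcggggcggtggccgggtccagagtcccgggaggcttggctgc
Ugt2b35: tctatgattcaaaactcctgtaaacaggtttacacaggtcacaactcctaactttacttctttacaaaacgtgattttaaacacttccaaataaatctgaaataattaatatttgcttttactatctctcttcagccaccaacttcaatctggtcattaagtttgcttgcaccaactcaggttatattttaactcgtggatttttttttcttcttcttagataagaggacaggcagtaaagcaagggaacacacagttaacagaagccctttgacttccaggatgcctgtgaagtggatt
Ugt2b5: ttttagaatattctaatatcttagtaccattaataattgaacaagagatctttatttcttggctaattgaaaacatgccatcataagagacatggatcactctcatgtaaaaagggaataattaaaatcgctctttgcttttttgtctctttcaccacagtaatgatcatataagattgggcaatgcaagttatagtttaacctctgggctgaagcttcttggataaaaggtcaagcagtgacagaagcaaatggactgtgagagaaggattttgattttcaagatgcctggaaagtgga
The core matched 2 times in the Ugdh window, beginning 132 and 94 bases before the start site. The core occurred in 12.4% of all 32851 windows of this length, and in 1 of the 40 windows available for 34 members, that of Ugdh. The xenobiotic response element core GCGTG, the binding motif of the AHR and ARNT pair, was found on either strand in 10 of the 40 windows, from 8 members, against 32.4% of all windows. In Ugdh 1 of its 3 matches, at 94 bases before the start site, overlapped an antioxidant response element match. The motif GTTAAT, one arm of the site of the liver transcription factor HNF1, searched on both strands, was in 10 of the 40 windows, from 10 members that included Ugt1a1, Ugt1a9 and Sult1a1, against 7.1% of all windows. A match is a run of letters and not a measured binding site.

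Counts summed to between 12002317 and 99284626 per library. Hepatocyte markers such as Alb and Apoa1 were detected in every group, with summed levels of 49868 to 119570 CPM (counts scaled to a common library size, after TMM normalisation). Nfe2l2 was at 42.8 to 74.9 CPM in WT DMSO, 36.6 to 45.5 after the drug, and the library labelled KO untreated 1 reached 51.7 CPM against 15.7 to 35.5 CPM in the other KO libraries. Nqo1, a classic NRF2 target, was at 0.508 CPM in that library, below the 3.21 CPM of the lowest WT library. WT DMSO 1 and 2, KO untreated 2 and the library labelled KO untreated 1 were rich in intronic reads, with 0.673 to 0.967% of counts in sense-intronic and unsettled (TEC) loci against 0.186 to 0.407% elsewhere. Nuclear ribosomal RNA genes took 0.00595% of counts in WT DMSO 4 and 0.0105% in WT CDDO-Me 1. The other WT libraries were at 0.173 to 0.634%. Every KO library was low as well, with a minimum of 0.00108% (KO CDDO-Me 3) and a maximum of 0.0368% (KO untreated 3). WT DMSO 4 and WT CDDO-Me 1 lay inside that range and the other WT libraries above it. This share therefore went largely with genotype, and its part in the comparisons between genotypes was not tested. Each library carries a running number of its own in its column name, but no label says that this number is a mouse. The p-values therefore measure the spread between these samples, which may be technical.

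Of the 41 members, 30 had enough counts to be tested, namely all glycosyltransferases and cofactor genes and 7 of 18 sulfotransferases. The other 11 sulfotransferases stayed below the filter. Sult6b2, Sult2a5 and Sult2a-ps2 had no count, and Sult1e1, the estrogen sulfotransferase, had the most of the others, 59 counts over the 16 libraries. Sult4a1 had 32 and Sult2b1 had 5, and Sult2a1, Sult2a2, Sult2a6, Sult3a1 and Sult6b1 had 2 or 3 each. On the per-length FPKM scale, which allows levels of different genes to be compared, Ugt2 genes were the most abundant family in WT DMSO, with a summed level of 877 ± 276 FPKM (SD, n = 4). The sulfotransferases summed to 294 ± 40.5 FPKM, the 4 cofactor genes to 123 ± 12.3, Ugt1a to 117 ± 16 and Ugt3 to 83.1 ± 22.2. In bulk liver, fewer cells of a type and less RNA per cell cannot be told apart.

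Under CDDO-Me in wild-type liver, a comparison that asks how the drug acts with Nrf2 present, 4 of the 30 tested members rose and 0 fell. They were Ugdh, Ugt2b35, Ugt2b5 and Ugt1a6b. A member was called at an edgeR quasi-likelihood adjusted p (Benjamini-Hochberg over 16206 genes) under 0.05. This is 13.3% of the tested members, beside 0.728% of all genes tested called in either direction, 0.555% higher and 0.173% lower. The median log2 fold change was 1.07 over the 8 Ugt2 genes, -0.27 over the 9 Ugt1a genes and -0.59 over the 7 tested sulfotransferases, against -0.02 over all genes. Calls by family were 1 of 9 Ugt1a, 2 of 8 Ugt2, 0 of 2 Ugt3, 0 of 7 tested Sult and 1 of 4 cofactor genes.

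**Figure D1:**
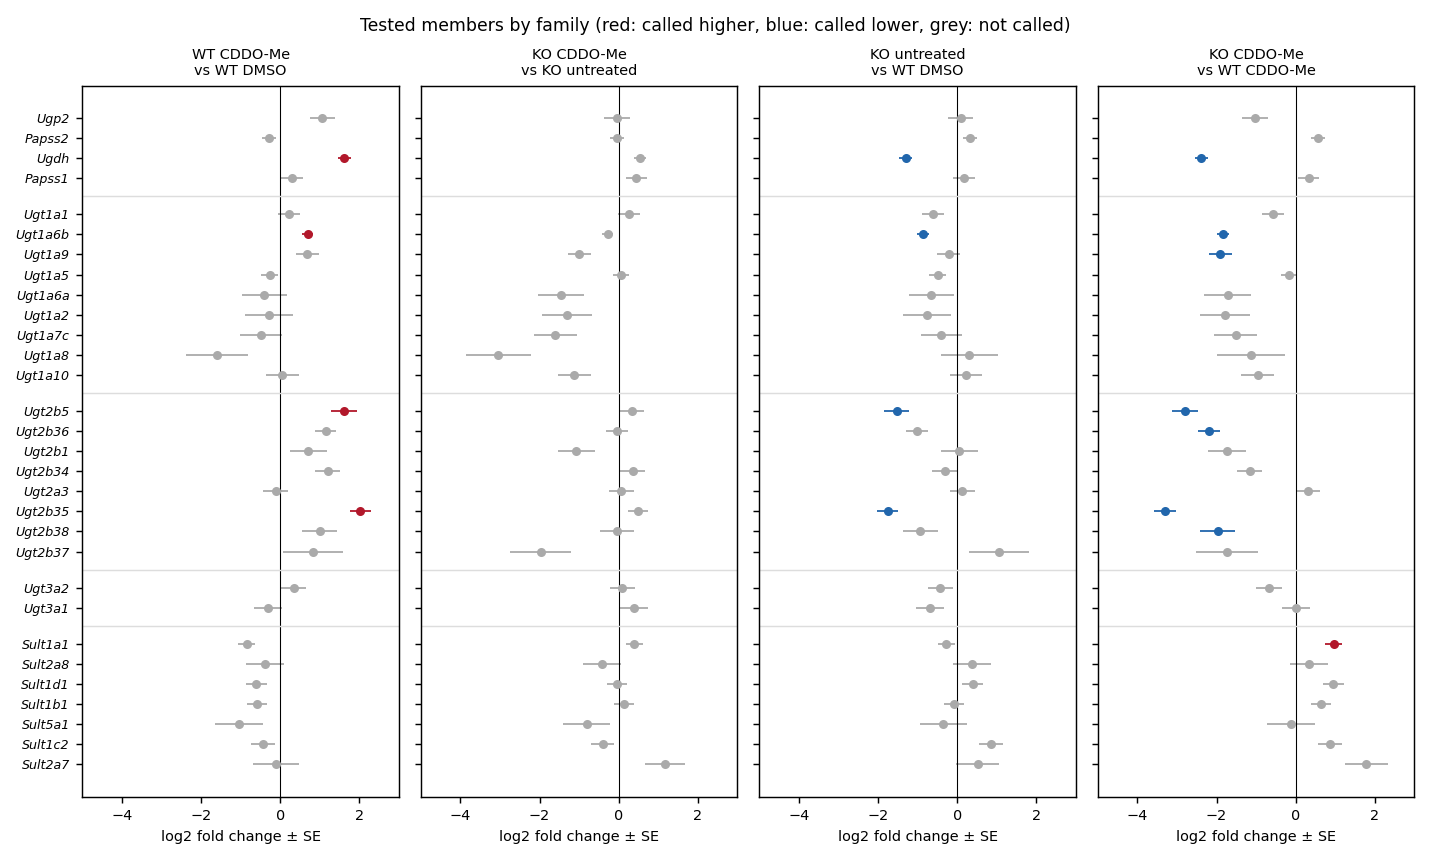
Log2 fold change with its standard error (horizontal axis) for each of the 30 tested members, grouped by family, in 4 comparisons. Red and blue points are members called higher and lower at an edgeR adjusted p under 0.05, 4 in the first panel, 0 in the second, 4 in the third and 8 in the fourth.

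Ugdh (chr5:65413221-65435949, minus strand), whose promoter window is printed above, encodes the enzyme that makes the sugar donor of glucuronidation. Ugdh was at 177, 146, 183 and 168 CPM in the 4 WT DMSO libraries and at 482, 552, 578 and 453 CPM in WT CDDO-Me. It was at 48.9, 71.9, 76.6 and 75.9 CPM in KO untreated and 96.8, 108, 102 and 88.6 CPM in KO CDDO-Me. Every treated WT library was above every other library, and every KO library was below every WT DMSO library. The rise under the drug in WT was 3.07-fold (log2 fold change 1.62 ± 0.16, edgeR adjusted p = 4.35e-05). In KO liver the log2 difference between treated and untreated was 0.53 ± 0.16 (adjusted p = 0.199), and the 4 treated KO libraries were all above the 4 untreated ones. Against WT, Ugdh was 2.46-fold lower in KO without the drug (adjusted p = 0.000530) and 5.22-fold lower under it (adjusted p = 1.48e-07). The WT response exceeded the KO response by a log2 difference of 1.08 ± 0.22, which did not pass over all genes (adjusted p = 0.0767) and did pass without the 4 intron-rich libraries (1.14, adjusted p = 0.0259). Of its exon bases, 2.3% lie in the overlapping gene Gm43552.

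The other cofactor genes did not pass in any comparison of the main edgeR fit. Between genotypes under the drug, 4 of 25 alternatives called Ugp2, 6 called Papss2 and 1 called Papss1. In WT under the drug, 2 of 25 called Ugp2. UGP2 acts 1 step before UGDH. Ugp2 was at 81.3, 121, 248 and 211 CPM in the 4 WT DMSO libraries and at 293, 378, 450.4 and 265 CPM in WT CDDO-Me. It was at 127, 149, 253 and 173 CPM in KO untreated and 129.8, 128, 219 and 205 CPM in KO CDDO-Me. The WT DMSO libraries spread from 81.3 to 248 CPM, and all 4 treated WT libraries lay above all 12 other libraries. The log2 difference in WT was 1.07 ± 0.32 (edgeR adjusted p = 0.153) and the difference of the WT and KO responses was 1.11 ± 0.46 (adjusted p = 0.496).

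Papss2 encodes the main PAPS synthase of liver. Papss2 was at 147, 141, 171 and 159 CPM in the 4 WT DMSO libraries and at 119, 127, 128 and 137 CPM in WT CDDO-Me. It was at 138, 176, 195 and 266 CPM in KO untreated and 165, 159.9, 221 and 203 CPM in KO CDDO-Me. All 4 treated WT libraries were below the 4 WT DMSO libraries, with a log2 difference of -0.28 ± 0.18 (edgeR adjusted p = 0.434), and below all 8 KO libraries. The KO libraries under the drug differed from the treated WT ones by 0.56 ± 0.18 (adjusted p = 0.106). Papss1 was at 10.6, 7.56, 15.7 and 19.5 CPM in the 4 WT DMSO libraries and at 15.7, 15.6, 17.5 and 16.8 CPM in WT CDDO-Me. It was at 8.84, 11.6, 18.4 and 21.5 CPM in KO untreated and 19.2, 21.3, 22.2 and 19.4 CPM in KO CDDO-Me. Its groups overlapped except in KO CDDO-Me, where all 4 libraries exceeded those of WT CDDO-Me, and the log2 difference there was 0.32 ± 0.27 (adjusted p = 0.614).

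**Figure D2:**
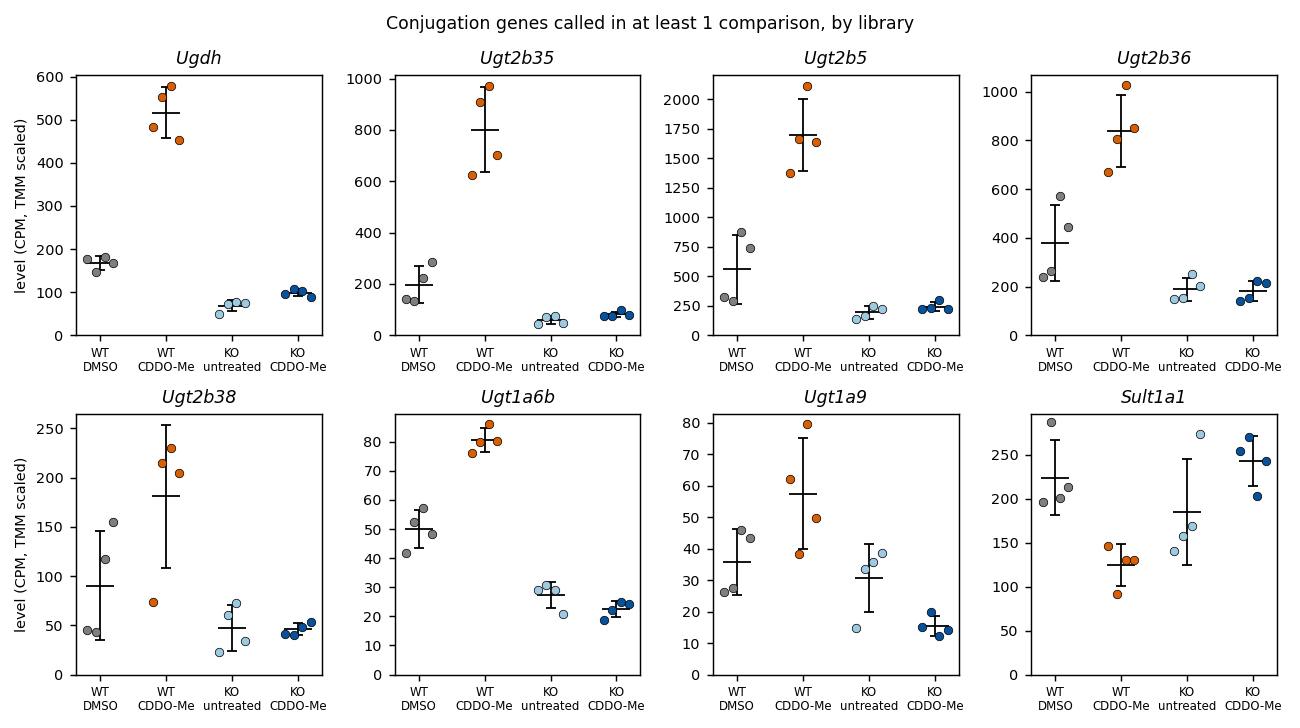
Level in CPM (vertical axis, from 0) of the 8 members called in at least 1 comparison, by library, with the mean and SD of each group of 4. Ugdh, Ugt2b35, Ugt2b5 and Ugt1a6b show treated WT libraries above all others, and Sult1a1 shows them mostly below.

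All 8 Ugt2 genes lie on chromosome 5. Ugt2b35 (chr5:87000860-87013275, plus strand) showed the largest rise among the members. Ugt2b35 was at 141, 135, 224 and 285 CPM in the 4 WT DMSO libraries and at 623, 910.5, 969.8 and 702 CPM in WT CDDO-Me. It was at 42.6, 69.2, 73.7 and 47.1 CPM in KO untreated and 75.8, 74.0, 97.5 and 78.7 CPM in KO CDDO-Me. Treated WT libraries were all above WT DMSO, and all KO libraries were below both. The rise in WT was 4.08-fold (log2 fold change 2.03 ± 0.26, edgeR adjusted p = 0.000577), while the KO response was 0.49 ± 0.25 (adjusted p = 0.343). Against WT, Ugt2b35 was 3.38-fold lower in KO without the drug (adjusted p = 0.00286) and 9.83-fold lower under it (adjusted p = 1.16e-06). The difference between the WT and KO responses was 1.54 ± 0.36 (adjusted p = 0.120).

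Ugt2b5 (chr5:87124960-87140318, minus strand) had the highest mean FPKM of the members in both WT groups and over the 16 libraries. In KO untreated Ugt2b1, Sult2a8 and Sult1a1 had higher means, and in KO CDDO-Me Sult1a1 did. Ugt2b5 was at 324, 292, 878 and 736 CPM in the 4 WT DMSO libraries and at 1378, 1663, 2111 and 1636 CPM in WT CDDO-Me. It was at 140.4, 159, 251 and 223 CPM in KO untreated and 219, 233, 296 and 226 CPM in KO CDDO-Me. WT DMSO 1 and 2 were at 324 CPM or less and WT DMSO 3 and 4 at 736 CPM or more, and the treated WT libraries were all higher still. The rise in WT was 3.04-fold (log2 fold change 1.61 ± 0.32, edgeR adjusted p = 0.0282), against 0.33 ± 0.32 in KO (adjusted p = 0.571). The low pair of WT DMSO libraries is the intron-rich one. Without the 4 intron-rich libraries the rise in WT was 1.05 (adjusted p = 0.0420), and the call was lost without any 1 of WT DMSO 1 and 2 and WT CDDO-Me 2, 3 and 4 (adjusted p up to 0.102) and on the 2 groups alone (adjusted p = 0.123). Ugt2b5 fell in KO by 2.88-fold without the drug (adjusted p = 0.0266), and this call was lost without any 1 of WT DMSO 3 and 4, KO untreated 2 and 4 (adjusted p up to 0.0954) and the library labelled KO untreated 1 (log2 fold change -1.40, adjusted p = 0.0654). Under the drug Ugt2b5 was 6.97-fold lower in KO than in WT (adjusted p = 8.42e-05), and the difference of responses was 1.27 ± 0.45 (adjusted p = 0.384). Of its 100-base transcript words, 24.7% also occur in Ugt2b38, so reads from these genes may be split between them.

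Ugt2b36 and Ugt2b38, like Ugt2b5 members of the subfamily known for conjugating steroids and drugs, were called between genotypes under the drug. Ugt2b36 was at 240.0, 262, 572 and 443 CPM in the 4 WT DMSO libraries and at 671, 807, 1026 and 849.5 CPM in WT CDDO-Me. It was at 148, 154, 249 and 203 CPM in KO untreated and 142, 154, 222 and 215 CPM in KO CDDO-Me. Treated WT libraries were all above WT DMSO, and the KO groups overlapped each other. Under the drug Ugt2b36 was 4.57-fold lower in KO than in WT (edgeR adjusted p = 0.000195). Its log2 difference for the drug was 1.14 ± 0.28 in WT (adjusted p = 0.0715) and -0.04 ± 0.27 in KO (adjusted p = 0.950). The difference of responses was 1.18 ± 0.39 (adjusted p = 0.321). Ugt2b38 was at 45.5, 42.9, 117 and 155 CPM in the 4 WT DMSO libraries and at 73.3, 215, 230.0 and 205 CPM in WT CDDO-Me. It was at 22.4, 60.5, 72.4 and 33.6 CPM in KO untreated and 41.5, 40.6, 48.5 and 53.3 CPM in KO CDDO-Me. WT CDDO-Me 1 was at 73.3 CPM and the other treated WT libraries at 205 or more, and that library lay inside the WT DMSO range. Under the drug Ugt2b38 was 3.93-fold lower in KO than in WT (adjusted p = 0.0238). This call was lost without any 1 of WT CDDO-Me 2, 3 and 4 and KO CDDO-Me 1, 2 and 3 (adjusted p up to 0.0848).

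Ugt2b1 was among the 3 most abundant Ugt2 genes and passed in no comparison of the main edgeR fit. Between genotypes under the drug, 8 of 25 alternatives called Ugt2b1. DESeq2, among these, called 6.94% of all genes there. Ugt2b1 was at 198, 231, 478 and 808 CPM in the 4 WT DMSO libraries and at 546, 442, 1220.0 and 590.4 CPM in WT CDDO-Me. It was at 267, 552, 675 and 278 CPM in KO untreated and 148, 120.4, 309.5 and 268 CPM in KO CDDO-Me. The treated KO libraries were all below the treated WT libraries, while the WT groups overlapped and WT DMSO spread from 198 to 808 CPM. The log2 difference was 0.71 ± 0.47 in WT (edgeR adjusted p = 0.453), -1.07 ± 0.47 in KO (adjusted p = 0.296) and -1.73 ± 0.48 between genotypes under the drug (adjusted p = 0.0621). The 3 other Ugt2 genes, Ugt2a3, Ugt2b34 and Ugt2b37, did not pass in that fit either. Their log2 fold changes were -0.11, 1.2 and 0.83 in WT under the drug. Between genotypes under it they were 0.31, -1.16 and -1.74 (edgeR adjusted p = 0.697, 0.0588 and 0.260). For Ugt2b34 every treated WT library was above every other library. DESeq2 called Ugt2b34 in both comparisons, beside 2.88% and 6.94% of all genes. Limma on log2(FPKM + 1) did too, beside 0.66% and 5.92%. The summed level of the Ugt2 family was 877 ± 276 FPKM in WT DMSO, 1972 ± 363 in WT CDDO-Me, 640.0 ± 141 in KO untreated and 527 ± 89.9 in KO CDDO-Me (SD, n = 4 each). The intron-rich WT DMSO 1 and 2 were at 634 and 644 FPKM and WT DMSO 3 and 4 at 1146 and 1084. The lowest WT CDDO-Me library was at 1575 FPKM. Ugt2b5 made up 41.6% of the family sum in WT CDDO-Me and 18.5% in KO untreated, where Ugt2b1 held 29.2%. Ugt2a3 held 3.66% in WT CDDO-Me and 18.8% in KO CDDO-Me.

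**Figure D3:**
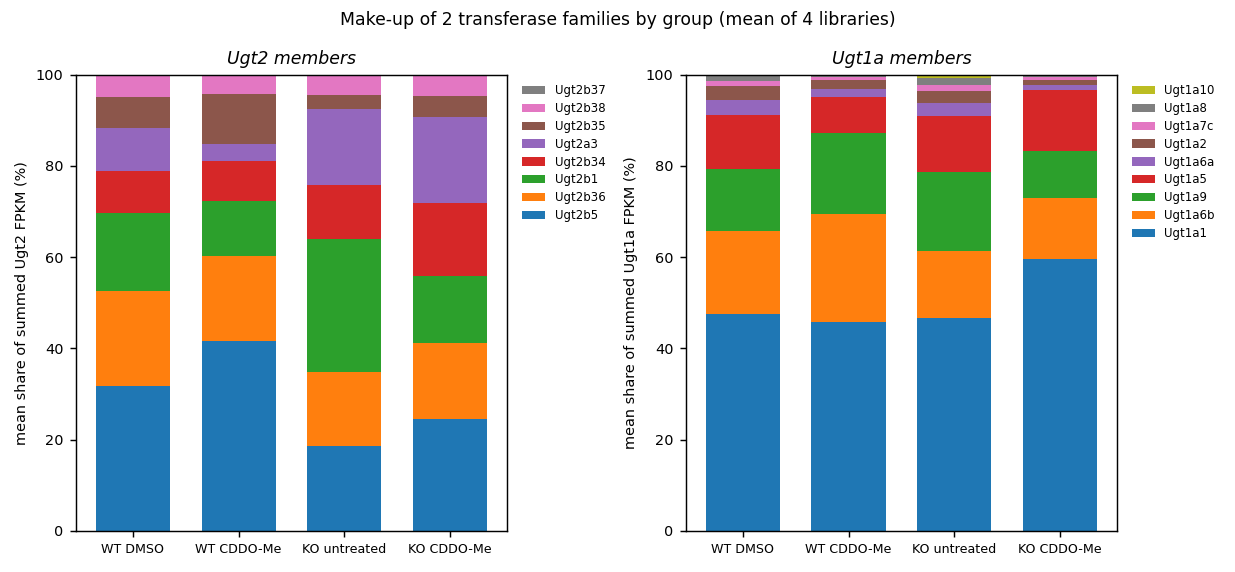
Mean share of the summed FPKM (vertical axis, %) held by each member of the Ugt2 family (left) and the Ugt1a family (right), by group of 4 libraries. In Ugt2 the share of Ugt2b5 is 41.6% in WT CDDO-Me and 18.5% in KO untreated, and in Ugt1a the largest share belongs to Ugt1a1 in all 4 groups.

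The 9 Ugt1a genes share 1 locus, chr1:88055388-88220002, plus strand, in which each has first exons of its own and 4 exon segments with 1311 bases are common to all. Between 39.4 and 49.7% of each gene's exon bases are its own. Of its 100-base transcript words, between 50.4% (Ugt1a6a) and 70.9% (Ugt1a6b) also occur in another gene. How reads in the common exons were assigned is stated in none of the sources used here, so each Ugt1a level is uncertain. Ugt1a6b, an enzyme of the subgroup known for conjugating small phenols, was called in 3 comparisons. Ugt1a6b was at 41.7, 52.5, 57.1 and 48.2 CPM in the 4 WT DMSO libraries and at 76.0, 80.1, 86.2 and 80.1 CPM in WT CDDO-Me. It was at 29.1, 30.6, 29.2 and 20.7 CPM in KO untreated and 18.9, 22.3, 24.9 and 24.1 CPM in KO CDDO-Me. The WT CDDO-Me, WT DMSO and KO ranges did not overlap. The rise in WT was 1.61-fold (log2 fold change 0.69 ± 0.14, edgeR adjusted p = 0.0370). This call was lost without any 1 of 8 libraries (WT DMSO 1 and 2, all 4 WT CDDO-Me, KO CDDO-Me 2 and 4, adjusted p up to 0.116). It was also lost without the 4 intron-rich libraries (0.59, adjusted p = 0.109), on the 2 groups alone, with WT DMSO 4 and WT CDDO-Me 1 left out, with no filter on low counts (adjusted p = 0.0820, 0.0770 and 0.0617) and by limma. In KO the response was -0.28 ± 0.14 (adjusted p = 0.341), and the difference of responses was 0.97 ± 0.20 (adjusted p = 0.0767). Against WT, Ugt1a6b was 1.82-fold lower in KO without the drug (adjusted p = 0.00693) and 3.57-fold lower under it (adjusted p = 7.55e-07). The call without the drug was lost by limma (adjusted p = 0.0867 and 0.0906 at pseudocounts 1 and 0.1) and on the 2 groups alone (adjusted p = 0.150).

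Ugt1a9 was called between genotypes under the drug. Ugt1a9 was at 26.1, 27.3, 46.0 and 43.3 CPM in the 4 WT DMSO libraries and at 62.1, 38.4, 79.4 and 49.8 CPM in WT CDDO-Me. It was at 14.8, 33.4, 35.8 and 38.6 CPM in KO untreated and 15.2, 19.9, 12.3 and 14.2 CPM in KO CDDO-Me. All treated KO libraries were below all treated WT libraries, and the library labelled KO untreated 1 was level with the treated KO group. Under the drug Ugt1a9 was 3.73-fold lower in KO than in WT (log2 fold change -1.90 ± 0.30, edgeR adjusted p = 0.00139). The drug gave 0.69 ± 0.29 in WT (adjusted p = 0.289) and -1.00 ± 0.29 in KO (adjusted p = 0.197), and the difference of responses was 1.68 ± 0.41 (adjusted p = 0.143). Ugt1a1 encodes the bilirubin transferase and was the most abundant Ugt1a gene. Ugt1a1 was at 97.3, 80.6, 183 and 144 CPM in the 4 WT DMSO libraries and at 123, 131, 170.2 and 167 CPM in WT CDDO-Me. It was at 66.3, 68.7, 105 and 90.7 CPM in KO untreated and 64.8, 74.4, 130.0 and 127 CPM in KO CDDO-Me. The 2 groups of each comparison overlapped, with 0.23 ± 0.27 for the drug in WT and -0.58 ± 0.27 between genotypes under the drug (adjusted p = 0.677 and 0.296). The WT difference turned to -0.17 without the 4 intron-rich libraries.

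The 6 other Ugt1a genes were not called in the main edgeR fit. For Ugt1a6a, Ugt1a2, Ugt1a7c and Ugt1a8 the 2 intron-rich libraries of both control groups were above the other 2. Ugt1a6a, for example, was at 19.4 and 27.4 CPM in WT DMSO 1 and 2 and at 9.84 and 2.20 CPM in WT DMSO 3 and 4. Of the 30 tested members 5 were above and 8 below in this way in both groups, and of all genes tested 23.9% were above and 24.3% below. The log2 fold changes of these 4 genes in KO under the drug, -1.46, -1.31, -1.60 and -3.04, were set against a group holding 2 such libraries, and the part of intronic reads in them was not tested. Between genotypes under the drug neither group held such a library. The 4 genes were at -1.72, -1.78, -1.51 and -1.13 there (edgeR adjusted p = 0.131, 0.149, 0.156 and 0.561). For Ugt1a6a, Ugt1a2 and Ugt1a7c all treated WT libraries were above all treated KO libraries, while for Ugt1a8 they overlapped. Ugt1a6a, Ugt1a2 and Ugt1a7c were called without the intron-rich libraries and on the 2 groups alone, beside 9.04% and 13.5% of all genes. The other pair, Ugt1a5 and Ugt1a10, had log2 fold changes of -0.27 and 0.05 in WT under the drug and -0.17 and -0.96 between genotypes under it. The first 4 were singled out after their values were seen.

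**Figure D4:**
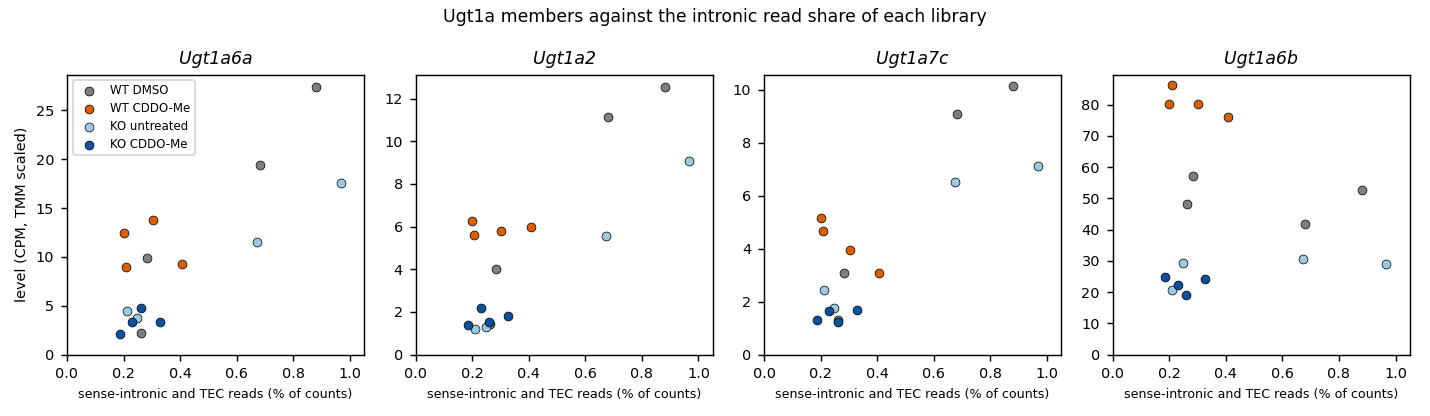
Level in CPM (vertical axis, from 0) of 4 Ugt1a members against the share of counts in sense-intronic and TEC loci (horizontal axis, %), 1 point per library, coloured by group. The 4 libraries above 0.6% hold the highest Ugt1a7c levels, while Ugt1a6b is highest in the treated WT libraries, which lie below 0.5%.

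The Ugt3 enzymes use other sugar donors than UDP-glucuronic acid, and both genes lie on chromosome 15. Ugt3a2 was at 116, 158, 291 and 296 CPM in the 4 WT DMSO libraries and at 211, 264, 350.3 and 267 CPM in WT CDDO-Me. It was at 115, 150.0, 239 and 138 CPM in KO untreated and 117, 123, 222 and 221 CPM in KO CDDO-Me. No group of Ugt3a2 stood apart from the others. Ugt3a1 was at 26.1, 35.0, 73.4 and 54.6 CPM in the 4 WT DMSO libraries and at 26.0, 33.6, 49.5 and 44.1 CPM in WT CDDO-Me. It was at 22.1, 30.6, 43.2 and 22.0 CPM in KO untreated and 29.0, 20.5, 51.9 and 51.9 CPM in KO CDDO-Me. The groups of Ugt3a1 overlapped too, and for both genes 0 comparisons were called. Ugt3a2 had a log2 difference of -0.68 ± 0.32 between genotypes under the drug (edgeR adjusted p = 0.296) and Ugt3a1 one of -0.68 ± 0.35 without it (adjusted p = 0.413).

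The sulfotransferases had lower, uncalled values under the drug in WT. All 7 tested genes had a negative log2 fold change there and 0 passed. At an unadjusted p under 0.05 there were 3, beside 15.3% of all genes, and DESeq2 called 1, Sult1a1, beside 2.88% of all genes. Their summed level was 294 ± 40.5 FPKM in WT DMSO, 171 ± 25.1 in WT CDDO-Me, 351 ± 33.6 in KO untreated and 305 ± 67.7 in KO CDDO-Me (SD, n = 4 each). Sult1a1 (chr7:126672865-126676432, minus strand) encodes the phenol sulfotransferase. Sult1a1 was at 196, 286, 200.3 and 213 CPM in the 4 WT DMSO libraries and at 147, 91.1, 130.2 and 129.9 CPM in WT CDDO-Me. It was at 140.2, 158, 169 and 273 CPM in KO untreated and 254, 269.9, 203 and 242 CPM in KO CDDO-Me. All treated WT libraries were below all WT DMSO libraries and below all treated KO libraries. Between genotypes under the drug Sult1a1 rose in KO by 1.95-fold (log2 fold change 0.96 ± 0.21, edgeR adjusted p = 0.0213). This call was lost without any 1 of WT CDDO-Me 2, 3 and 4 and KO CDDO-Me 1 and 2 (adjusted p up to 0.0728). The drug gave -0.85 ± 0.21 in WT (adjusted p = 0.0881) and 0.39 ± 0.21 in KO (adjusted p = 0.359), and the difference of responses was -1.24 ± 0.30 (adjusted p = 0.143).

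Sult1d1 and Sult2a8 were the other abundant sulfotransferases. Sult1d1 was at 60.4, 63.0, 108 and 58.5 CPM in the 4 WT DMSO libraries and at 30.9, 54.6, 49.4 and 56.5 CPM in WT CDDO-Me. It was at 61.4, 89.5, 129 and 99.1 CPM in KO untreated and 65.8, 88.9, 109 and 105 CPM in KO CDDO-Me. For Sult1d1 the treated WT libraries were below all other libraries, with -0.60 ± 0.26 in WT (edgeR adjusted p = 0.297) and 0.95 ± 0.26 between genotypes under the drug (adjusted p = 0.0592). The latter was called in 10 of 25 alternatives. Sult2a8 encodes a liver enzyme that sulfates bile acids. Sult2a8 was at 242, 214, 494 and 483 CPM in the 4 WT DMSO libraries and at 153, 274, 419.5 and 257 CPM in WT CDDO-Me. It was at 468, 511, 594 and 285 CPM in KO untreated and 125, 133, 588 and 551 CPM in KO CDDO-Me. KO CDDO-Me 1 and 2 were at 133 CPM or less and KO CDDO-Me 3 and 4 at 551 CPM or more, so the treated KO group was split, and 0 comparisons were called (log2 difference 0.34 ± 0.48 under the drug between genotypes, adjusted p = 0.803). The other 4 tested sulfotransferases, Sult1b1, Sult1c2, Sult2a7 and Sult5a1, were not called in the main edgeR fit. Their log2 fold changes were -0.59, -0.43, -0.11 and -1.04 in WT under the drug and 0.63, 0.87, 1.79 and -0.12 between genotypes under it. The genotype difference of Sult2a7 was called by DESeq2, beside 6.94% of all genes, and by limma, beside 5.92% at pseudocount 1.

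In KO liver under the drug, 0 of 30 tested members were called by edgeR, beside 0.13% of all genes. At an unadjusted p under 0.05 there were 9 members (30%), beside 15.8% of all genes. DESeq2 called 2, Ugdh and Ugt1a8, beside 1.84% of all genes, and limma called 0, beside 0.413%. In the test of whether the drug responses of WT and KO differ, 0 of 30 members were called by edgeR, again beside 0.13% of all genes, with 10 at an unadjusted p under 0.05, beside 8.53% of all genes. DESeq2 called 5, namely Ugdh, Ugt1a6b, Ugt1a9, Ugt2b35 and Sult1a1, beside 1.1% of all genes. Limma on log2(FPKM + 1) called 3, Ugdh, Ugt2b35 and Ugt2b36, beside 0.352%. The median of that difference was 1.23 over the Ugt2 genes, 1.06 over Ugt1a and -0.56 over the tested sulfotransferases, against 0.01 over all genes.

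**Figure D5:**
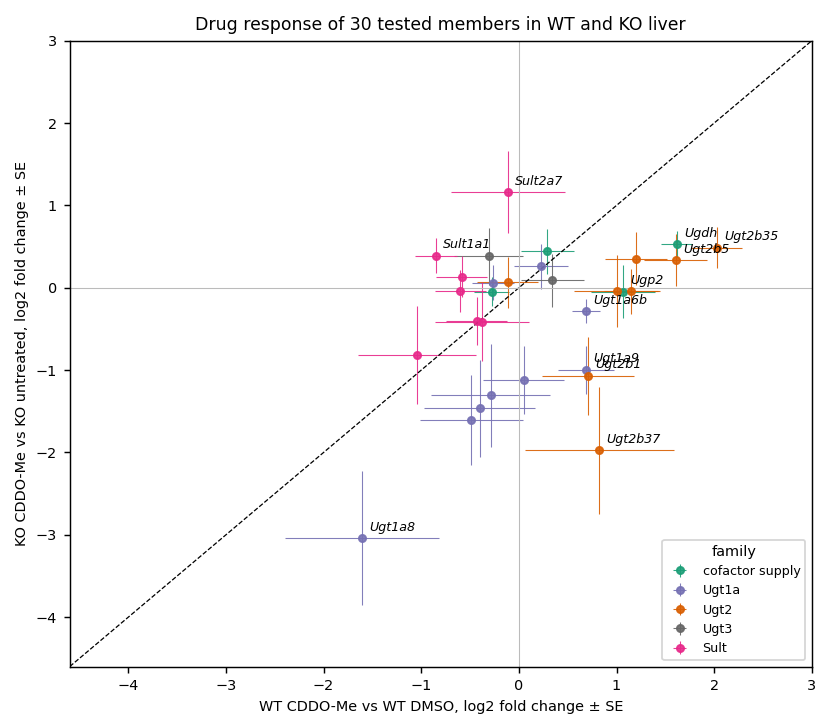
Log2 fold change under CDDO-Me in KO liver (vertical axis) against that in WT liver (horizontal axis) for the 30 tested members, with standard errors, coloured by family, and a dashed line of equal response. Ugdh, Ugt2b35 and Ugt2b5 lie to the right of the line, at 1.62, 2.03 and 1.61 in WT and 0.53, 0.49 and 0.33 in KO. The WT control received DMSO and the KO control is labelled untreated.

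Without the drug, 4 of 30 members fell in KO and 0 rose, which is 13.3% beside 1.38% of all genes called in either direction, 0.407% higher and 0.969% lower. They were Ugdh, Ugt2b35, Ugt2b5 and Ugt1a6b. This comparison and the drug response in WT share the WT DMSO libraries. Without the library labelled KO untreated 1, Ugdh was at -1.17, Ugt2b35 at -1.62 and Ugt1a6b at -0.89 (log2 fold change, adjusted p = 0.000898, 0.0107 and 0.0153). Fitted on these 2 groups alone, where 0.13% of all genes were called, Ugdh was the 1 member called (-1.32, adjusted p = 0.0404). Between genotypes under the drug, 7 of 30 members were lower in KO than in WT and 1 was higher. This is 26.7% beside 3.3% of all genes in either direction, 1.06% higher and 2.23% lower. Those lower in KO were Ugdh, 2 Ugt1a genes (Ugt1a6b and Ugt1a9) and 4 Ugt2 genes (Ugt2b5, Ugt2b35, Ugt2b36 and Ugt2b38), and Sult1a1 was higher. This comparison shares the WT CDDO-Me libraries with the drug response in WT. The median log2 fold change was -1.86 over Ugt2, -1.51 over Ugt1a and 0.88 over the tested sulfotransferases, against -0.01 over all genes. Some other fits called more members and more genes, and some called fewer. Without 1 library, 6 to 12 members were called, beside 1.63 to 5.03% of all genes. DESeq2 called 16 members, beside 6.94% of all genes, and the fit on these 2 groups alone called 18, beside 13.5%, the 8 included each time.

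Other genes of conjugation were counted from a list of 37, of which 34 were tested. Under the drug in WT 3 rose and 0 fell, beside 0.728% of all genes called. They were Slc35d1, which carries UDP-sugars into the endoplasmic reticulum (2.57-fold, edgeR adjusted p = 0.000916), and the exporters of conjugates Abcc3 (2.54-fold, adjusted p = 0.00621) and Abcc4 (4.26-fold, adjusted p = 0.000273). Slc35d1 was at 99, 95.4, 162 and 171 CPM in the solvent group of WT and 352, 349, 348 and 310.2 CPM after the drug. In KO under the drug 0 of 34 were called, beside 0.13% of all genes. The difference of responses was called for Abcc4 (2.14 ± 0.35, adjusted p = 0.0155), again beside 0.13% of all genes. Without the drug Abcc3 fell in KO by a log2 fold change of -2.83 ± 0.24 (adjusted p = 7.38e-06), the dioxin receptor gene Ahr fell (-0.88 ± 0.16, adjusted p = 0.0127) and the sulfatase gene Arsg rose (0.92 ± 0.20, adjusted p = 0.0288). In that comparison 1.38% of all genes were called. Under the drug 9 were lower in KO than in WT and 1 was higher, beside 3.3% of all genes called. The 4 with the lowest adjusted p were Abcc3 (-4.13 ± 0.25), Abcc4 (-2.89 ± 0.26), Slc35d1 (-1.49 ± 0.18) and Nr1i3 (-3.45 ± 0.57), which encodes the xenobiotic receptor CAR (adjusted p = 4.43e-08, 2.80e-06, 0.000124 and 0.00205). The 4 export genes of the list, Abcc2, Abcc3, Abcc4 and Abcg2, were all lower in KO than in WT under the drug. Nr1i3 was at 145, 271, 145 and 27.6 CPM in WT DMSO, 168, 257, 165 and 218 in WT CDDO-Me, and 8.13 to 66.4 in the KO libraries.

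Markers of cell types moved with some of these comparisons. Of all genes tested, 0.728% were called in WT under the drug. Between genotypes 1.38% were called without the drug and 3.3% under it, and 0.13% for the difference of responses. Of 8 Kupffer cell and macrophage markers 4 rose under the drug in WT, and their summed level was 177 to 247 CPM in WT DMSO, against 403 to 557 CPM after the drug. In KO 1 of the 8, Adgre1, was higher than in WT without the drug, and Marco was lower under it, with a called difference of responses. Of the 6 general hepatocyte markers Tat was higher in KO than in WT under the drug. Of 7 periportal hepatocyte markers 1, Sds, fell in WT under the drug and 4 were higher in KO than in WT under the drug, with summed levels of 5510.1 to 6196 CPM in WT CDDO-Me and 8139.9 to 9546 CPM in KO CDDO-Me. Of 8 pericentral markers 1, Cyp1a2, was lower in KO than in WT under the drug. The summed pericentral level was 4233 to 7718 CPM in WT CDDO-Me and 2069 to 5084 CPM in KO CDDO-Me. No marker of these 4 lists was at 0 in any group, and their part in the results for the conjugation genes was not tested.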

How the data were processed

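The authors deposited read counts, as whole numbers, for 33730 genes in 16 libraries. The submitters' processing notes name DESeq2, HTSeq 0.6.1p1, TopHat2 2.1.0, cutadapt 1.2.1 and CASAVA 1.8.2, with build GRCm38.p5, and state no role or order. Per the labels, libraries were depleted of ribosomal RNA and directional, while the sources used here give no annotation release, counting mode or strand setting. The deposited FPKM values, made by the authors, equal count over gene length and library total, with a largest relative deviation of 8.9e-07. They were used for levels between genes and in alternatives.

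Counts were tested with edgeR 4.0.16 (glmQLFit and glmQLFTest) in R 4.3.3, with TMM scaling, filterByExpr by group and 1 fit over the 16 libraries (12 residual degrees of freedom). Benjamini-Hochberg adjustment ran over 16206 genes and the threshold was an adjusted p of 0.05. CPM values use TMM-scaled library sizes. Values are mean ± SD, and fold changes ± standard error. Alternatives were RLE scaling, no filter, DESeq2 1.42.0, limma 3.58.1 on log2(FPKM + 1) and log2(FPKM + 0.1), a replicate block, the 2 groups of a comparison alone and libraries left out. The fit was tested on simulated data. Positions came from GENCODE M21 (GRCm38), which held all 41 members.

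Members named with values in every library were the 4 cofactor genes, each member called in a comparison and the 3 of each transferase family with the highest mean FPKM. Pathway genes were named when called, up to 4 per comparison by adjusted p. The members and lists were chosen with earlier results of these data known. Counts of 2 libraries of the same group never agreed within sampling noise (lowest chi-square per degree of freedom 16.7). Pairs from different groups were not checked. The marker lists covered general, pericentral and periportal hepatocytes and Kupffer cells, whose calls the results give. Lists for erythroid cells, endothelium, fibroblasts with stellate cells, lymphocytes, monocytes with neutrophils, cholangiocytes, other abdominal tissues and sex-biased liver genes had 0 calls by edgeR.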

Additional observations from a re-analysis of the deposited data

Results flagged for a closer look

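In 4 of the 68 groups of 4 libraries checked for the 17 named members, 1 library stood apart from the other 3. Chance alone sets about 1 in 20 such groups apart. Ugdh was at 48.9 CPM in the library labelled KO untreated 1, against 71.9 to 76.6 CPM in the other 3. Ugt1a6b was at 20.7 CPM in KO untreated 4, against 29.1 to 30.6 CPM. Ugt2b38 was at 73.3 CPM in WT CDDO-Me 1, the library with the largest total count, against 205 to 230.0 CPM. Sult1d1 was at 108 CPM in WT DMSO 3, against 58.5 to 63.0 CPM.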

How the results depend on the processing

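Of the 16 pairs of member and comparison that were called, 9 were called in every alternative run, 11 without each library in turn, and 0 changed direction. Of all 85 pairs of named member and comparison 22 changed direction in at least 1 alternative, 0 of them called. The members called in WT under the drug (4) numbered 8 with DESeq2, 7 with the replicate block, 2 on the 2 groups alone and 2 to 5 without 1 library. In KO under the drug (0) they numbered 2 with DESeq2 and 0 to 1 without 1 library. Without the drug between genotypes (4) there was 1 on the 2 groups alone, and limma called 3, without Ugt1a6b. DESeq2 called 5 there, and 3 to 5 were called without 1 library. Under the drug between genotypes (8) they numbered 16 with DESeq2, 15 with the replicate block, 18 on the 2 groups alone, 17 without the intron-rich libraries and 13 with limma at either pseudocount. Without 1 library they numbered 6 to 12. For the difference of responses (0) they numbered 5 with DESeq2, 3 with limma at either pseudocount, 2 with the replicate block, 1 without the intron-rich libraries, 1 with WT DMSO 4 and WT CDDO-Me 1 both left out, and 0 to 2 without 1 library. Genes called overall moved too. Under the drug between genotypes they went from 534 to 1125 with DESeq2, 811 with the block, 2045 on the 2 groups alone, 1482 without the intron-rich libraries and 959 and 970 with limma at pseudocounts 1 and 0.1. They were 406 with no filter on low counts and 265 to 820 without 1 library. In WT under the drug they went from 118 to 466 with DESeq2, 226 with the block and 72 on the 2 groups alone. Without 1 library they were 54 to 219. In KO under the drug they went from 21 to 299 with DESeq2 and 4 to 133 without 1 library. Without the drug between genotypes they went from 223 to 653 with DESeq2 and 20 on the 2 groups alone. They were 86 without the intron-rich libraries and 104 to 271 without 1 library. With limma they were 251 and 234 at pseudocounts 1 and 0.1. For the difference of responses they went from 21 to 178 with DESeq2, 57 and 54 with limma and 42 with the block. They were 67 without the intron-rich libraries, 26 with WT DMSO 4 and WT CDDO-Me 1 left out, and 18 to 48 without 1 library. On the FPKM values, which carry no TMM scaling, the median log2 fold change of all genes was -0.22 in KO under the drug and 0.17 between genotypes without it at pseudocount 0.1, against -0.04 and 0.004. Between genotypes under the drug, the share of calls higher in KO than in WT was 66.2% with limma at pseudocount 1, against 32.2%. Among members it was 4 of 13 against 1 of 8. Fits with fewer samples or other spread estimates differ by construction, and the cause of the other changes was not tested.

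Uncalled log2 fold changes that turned sign were these. Without the intron-rich libraries, WT under the drug gave -0.17 for Ugt1a1, -0.13 for Ugt3a2 and -0.14 for Papss1, and KO under the drug gave -0.12 for Ugt3a2. KO without the drug gave -0.46 for Ugt2b1, 0.07 for Sult1a1, -0.18 for Sult2a8 and -0.13 for Ugp2, and the difference of responses gave -0.011 for Ugt3a2 and -0.54 for Sult2a8. With WT DMSO 4 and WT CDDO-Me 1 left out, Sult2a8 was at 0.005 in WT, Ugt3a1 at -0.14 between genotypes under the drug, and the difference of responses was 0.12 for Ugt1a1 and for Papss1. The replicate block gave 0.08 for Ugt2b38 in KO, -0.028 for Ugt3a1 between genotypes under the drug and 0.062 for Ugt1a1 in the difference. With limma Ugt3a2 in KO was at -0.13 and Ugt1a1 in the difference at 0.12, at either pseudocount. Leaving out 1 library gave, in KO under the drug, -0.15 to 0.13 for Ugt2b36, -0.28 to 0.25 for Ugt2b38, -0.062 to 0.35 for Ugt3a2, -0.21 to 0.15 for Sult1d1, -0.19 to 0.19 for Ugp2 and -0.19 to 0.14 for Papss2. Between untreated genotypes it gave -0.35 to 0.014 for Ugt1a9, -0.23 to 0.55 for Ugt2b1, -0.14 to 0.35 for Ugp2 and -0.047 to 0.42 for Papss1, and under the drug -0.17 to 0.21 for Ugt3a1 and -0.034 to 0.62 for Sult2a8. For the difference it gave -0.20 to 0.20 for Ugt1a1, -0.004 to 0.45 for Ugt3a2, -0.25 to 0.41 for Sult2a8 and -0.37 to 0.095 for Papss1.

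The labels do not tie replicate numbers across groups, and not every same-number pair correlated, so the numbers were not taken as pairs. Deviations from the group mean correlated at -0.46 to 0.52 (median 0.19, 24 pairs) between libraries of the same number, against -0.67 to 0.71 (median -0.06, 72 pairs) between different numbers, and 9 of 16 libraries correlated best with their own number. The 11 sulfotransferases below the filter had at most 59 counts each over the 16 libraries and were not tested.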
